A study of Rattus norvegicus with 6 samples.

Results

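Cytochrome P450 (CYP) genes were examined in mural cells, the contractile and pericytic cells of the vessel wall, of the rat cerebral cortex. The set holds every gene of the deposited table whose symbol begins with Cyp, a number and a letter, leaving out Cyp51, together with Por, Ephx1 and Ephx2. It came to 30 of the 14607 genes of the table, with 28 symbols, because Cyp4f37 is listed under 3 Ensembl identifiers. Of these, 27 were P450 genes with 25 symbols.

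Messenger RNA had been sequenced from 3 samples of vascular smooth muscle cells (VSMCs) and 3 samples of mid-capillary pericytes (mcPCs). Both came from male Sprague-Dawley rats of 4 to 5 weeks, and each of 3 isolations pooled the cortices of 10 rats. VSMCs were sorted by their binding of a lectin from arterioles held back on a fine mesh, after removal of cells carrying CD31 or CD11b. The mcPCs were the cells of the filtrate that remained after removal of cells carrying CD31, CD11b, GLAST or O4, so no antibody selected them positively. The values used here are the authors' means for each cell type, and the authors' own comparison was not used. The differences below compare those means, with no test and no spread between samples, so they do not show whether a difference exceeds the spread between isolations. In bulk RNA, fewer cells of a type and less RNA per cell cannot be told apart.

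P450 enzymes are heme proteins that insert an oxygen atom into lipids, steroids and foreign compounds. Most sit in the endoplasmic reticulum and take electrons from a shared partner, the reductase encoded by Por. In the cerebral circulation they are known for products of arachidonic acid. Enzymes of the CYP4A group and some of the CYP4F group make 20-HETE, a constrictor. Enzymes such as those of the CYP2J group make the dilator epoxyeicosatrienoic acids (EETs), which epoxide hydrolases break down.

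The 3 genes with the largest ratio between the cell types and the most abundant pair of the CYP4F group are shown first by their promoters, the stretch from 250 bases before to 50 after the annotated start of transcription. Sequences are from RefSeq on the GRCr8 build, written 5′ to 3′ on the strand of the gene, and are shown to compare their start regions. Cyp4b1 lies at chr5:134393067-134393366 (minus strand), Cyp21a1 at chr20:4028141-4028440 (plus strand), Cyp2d4 at chr7:115771772-115772071 (minus strand), Cyp4f6 at chr7:12708329-12708628 (minus strand) and Cyp4f5 at chr7:12194387-12194686 (plus strand). Capitals mark matches on either strand to 5 motifs. The TATA box was searched as TATAAA and the motif named after its letters as CCAAT. The GC box was searched as GGGCGG. A half-site of steroidogenic factor 1 was searched as AAGGTCA, and the core of the dioxin response element as TNGCGTG. No motif contains another.
Cyp4b1: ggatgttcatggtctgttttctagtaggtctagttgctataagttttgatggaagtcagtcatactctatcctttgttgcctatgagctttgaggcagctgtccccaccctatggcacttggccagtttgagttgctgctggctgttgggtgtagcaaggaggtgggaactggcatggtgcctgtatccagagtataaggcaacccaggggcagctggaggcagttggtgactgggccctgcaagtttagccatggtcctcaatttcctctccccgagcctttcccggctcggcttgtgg
Cyp21a1: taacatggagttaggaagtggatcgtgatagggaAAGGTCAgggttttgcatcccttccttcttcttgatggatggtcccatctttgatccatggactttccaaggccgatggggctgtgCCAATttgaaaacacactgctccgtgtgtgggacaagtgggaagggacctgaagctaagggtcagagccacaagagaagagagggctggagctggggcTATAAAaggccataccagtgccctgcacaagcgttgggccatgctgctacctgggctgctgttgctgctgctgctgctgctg
Cyp2d4: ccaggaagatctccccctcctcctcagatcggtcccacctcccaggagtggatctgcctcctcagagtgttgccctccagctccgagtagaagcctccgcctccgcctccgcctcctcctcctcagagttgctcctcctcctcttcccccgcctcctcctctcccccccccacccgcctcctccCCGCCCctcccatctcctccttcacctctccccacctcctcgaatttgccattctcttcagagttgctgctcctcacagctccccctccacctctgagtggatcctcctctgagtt
Cyp4f6: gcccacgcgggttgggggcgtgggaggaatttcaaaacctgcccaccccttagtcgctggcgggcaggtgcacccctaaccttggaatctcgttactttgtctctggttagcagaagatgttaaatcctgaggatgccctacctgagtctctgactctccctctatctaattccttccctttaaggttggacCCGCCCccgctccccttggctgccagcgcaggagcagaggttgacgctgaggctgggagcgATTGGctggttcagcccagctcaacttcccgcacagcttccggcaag
Cyp4f5: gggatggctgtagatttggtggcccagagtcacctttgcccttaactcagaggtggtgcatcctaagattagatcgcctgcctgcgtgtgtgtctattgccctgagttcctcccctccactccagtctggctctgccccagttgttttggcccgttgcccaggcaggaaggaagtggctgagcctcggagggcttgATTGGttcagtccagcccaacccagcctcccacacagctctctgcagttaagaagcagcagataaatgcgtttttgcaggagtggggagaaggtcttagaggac

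The window of Cyp21a1 held a TATA box 32 bases before the start, a CCAAT box 130 bases before it and the steroidogenic factor half-site 216 bases before it. Among 23 member genes with a promoter entry it was the sole one with TATAAA, which 14.2% of all 33469 promoters of this length hold. The half-site was in 4 of the 23 genes (Cyp21a1, Cyp27a1, Cyp2u1 and Ephx1) and in 4.61% of all promoters. The window of Cyp4b1 held none of the motifs. Cyp2d4 had a GC box 66 bases before the start in a stretch rich in pyrimidines. Cyp4f5 and Cyp4f6 shared a CCAAT box on the opposite strand, 54 bases before the start in the one and 4 bases into the transcript in the other, and Cyp4f6 also had a GC box 58 bases before the start. CCAAT boxes were found in 14 of the 23 genes (37.5% of all promoters) and GC boxes in 15 (33.1% of all promoters). The dioxin response core was in Cyp1b1, 22 bases before the start, and in Cyp26b1, against 4.89% of all promoters. Observed over expected CpG was 0.145 in the window of Cyp4b1, 0.189 in Cyp21a1 and 0.213 in Cyp4f5, below the median of all promoters (0.392). It was above that median in Cyp2d4 (0.421), Cyp4f6 (0.506) and Cyp46a1 (1.04). The median over the members' promoters was 0.421. These matches describe letters only.

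Abundances in TPM, a measure that corrects for transcript length and can be compared between genes, summed to 153.0 TPM over the P450 genes in VSMCs and 135 TPM in mcPCs. The make-up differed. In VSMCs Cyp20a1, an orphan P450 without a settled substrate, Cyp4f6 and Cyp4f5 together held 64.2% of P450 abundance. In mcPCs Cyp21a1, Cyp4b1 and Cyp2d4 held 59.9%, and these same genes made up 3.71% in VSMCs. Because a share is taken within a cell type, it does not depend on how the libraries of the cell types were scaled to each other.

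**Figure D1:**
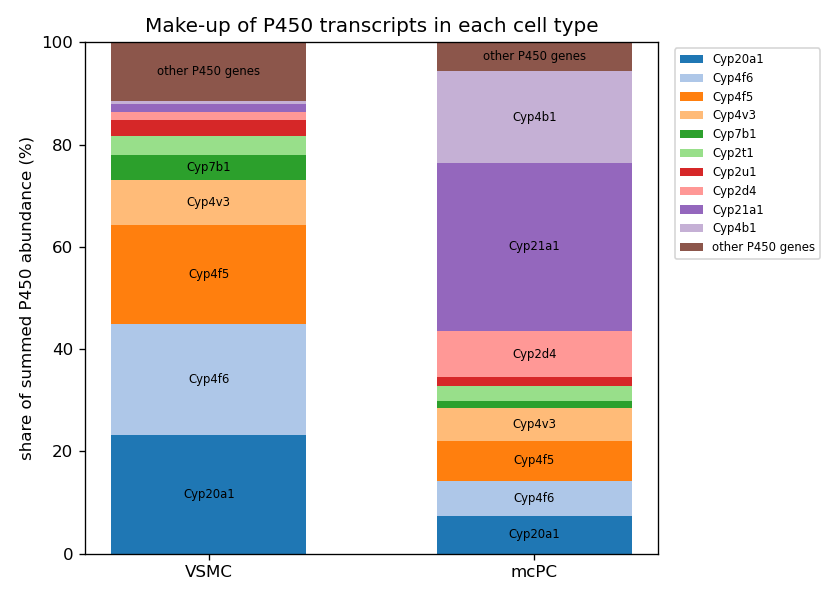
Share of summed P450 abundance (percent of TPM, y axis) taken by each gene in VSMCs and mcPCs (x axis). Genes with at least 3% in either cell type are separate and the rest are joined. Cyp20a1, Cyp4f6 and Cyp4f5 fill 64.2% of the VSMC bar, and Cyp21a1, Cyp4b1 and Cyp2d4 fill 59.9% of the mcPC bar.

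Levels between the cell types were compared as the log2 ratio of the authors' mean normalized counts, mcPC over VSMC, with a 95% exact binomial (Clopper-Pearson) interval that covers counting error of the reads only. Reads over a cell type are taken as the mean count times 12 sequencing runs, a factor inferred from the values. A gene was taken as higher in a cell type when this ratio was at least 2-fold. By that limit 10 members were higher in mcPCs (33.3%) against 22% of all genes in the table, and 3 of the 30 were higher in VSMCs against 13.9% of all genes. The remaining 17 lay within 2-fold. Ratios on TPM as deposited, here and below, have a pseudocount of 0.1 TPM added to each mean. On that scale 3 members were higher in mcPCs (7% of all genes were) and 19 in VSMCs (72.3% of all genes). Without the pseudocount, Cyp1b1 would also pass the limit toward mcPCs and Cyp4a8 toward VSMCs. With counts scaled to the same total 6 were higher in mcPCs (15.5% of all genes) and 8 in VSMCs (28.8% of all genes). The whole counting interval lay past 2-fold toward mcPCs for 8 of the 10 members (2738 of the 3210 genes in all, or 18.7% of the table), and toward VSMCs for none of the 3 (1739 of the 2034 genes in all, or 11.9%). The median log2 ratio was 0.22 over the members and 0.01 over all genes.

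The direction of the smaller differences depends on the scale. TPM adds to the same total in every sample, and the erythrocyte genes checked held 54.2% of it in mcPCs and 0.715% in VSMCs. The median gene had 12.7 TPM in VSMCs against 3.59 TPM in mcPCs, and the median over genes of the log2 ratio of TPM (pseudocount 0.1) was -1.72. With counts scaled after leaving out the erythrocyte genes, the median of all genes moved by -0.01 from its value on normalized counts. Each TPM value below is therefore a level within its cell type, and each log2 ratio is of normalized counts unless stated. The depth of a VSMC sample was 62.0 M reads over these genes, and that of a mcPC sample 48.0 M reads.

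**Figure D2:**
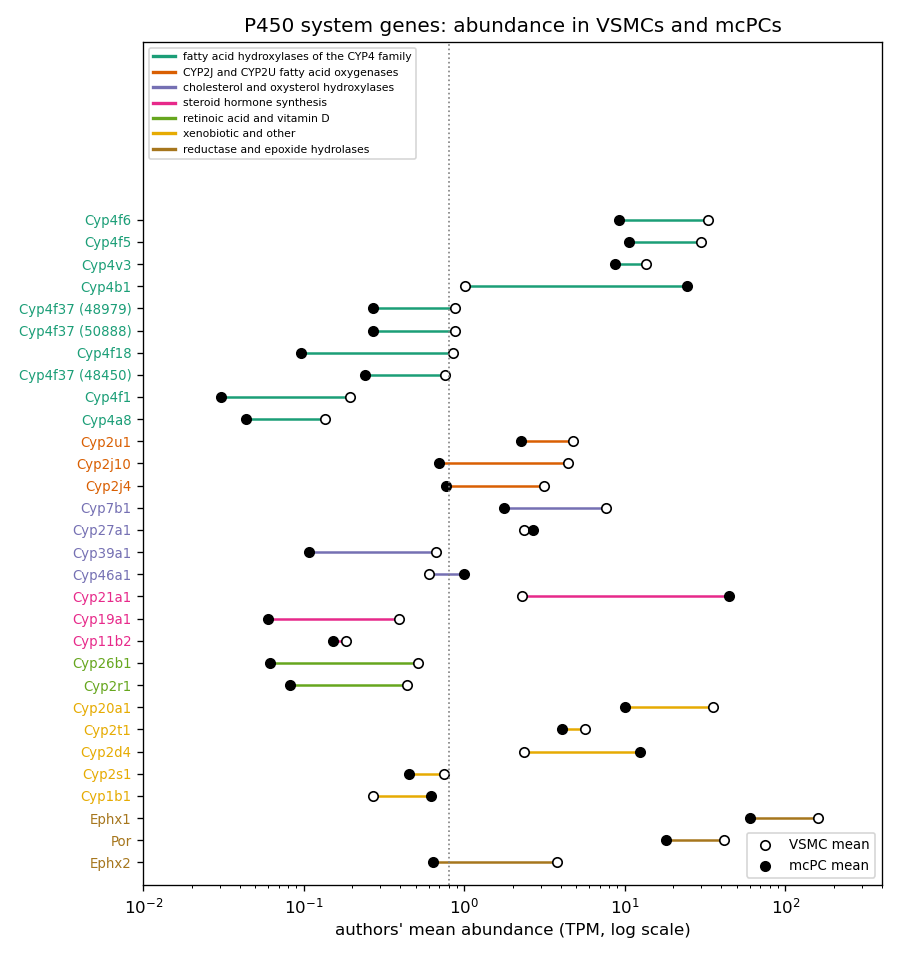
Authors' mean abundance in TPM (x axis, log scale) of each member in VSMCs (open circles) and mcPCs (filled circles), with line and label colours giving the role of the gene and the dotted line at 0.8 TPM. Cyp4f37 is shown by the last digits of its identifiers. Ephx1 and Por are the most abundant in VSMCs (160.6 and 41.7 TPM), and 10 members stay under 0.8 TPM in both cell types.

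**Figure D3:**
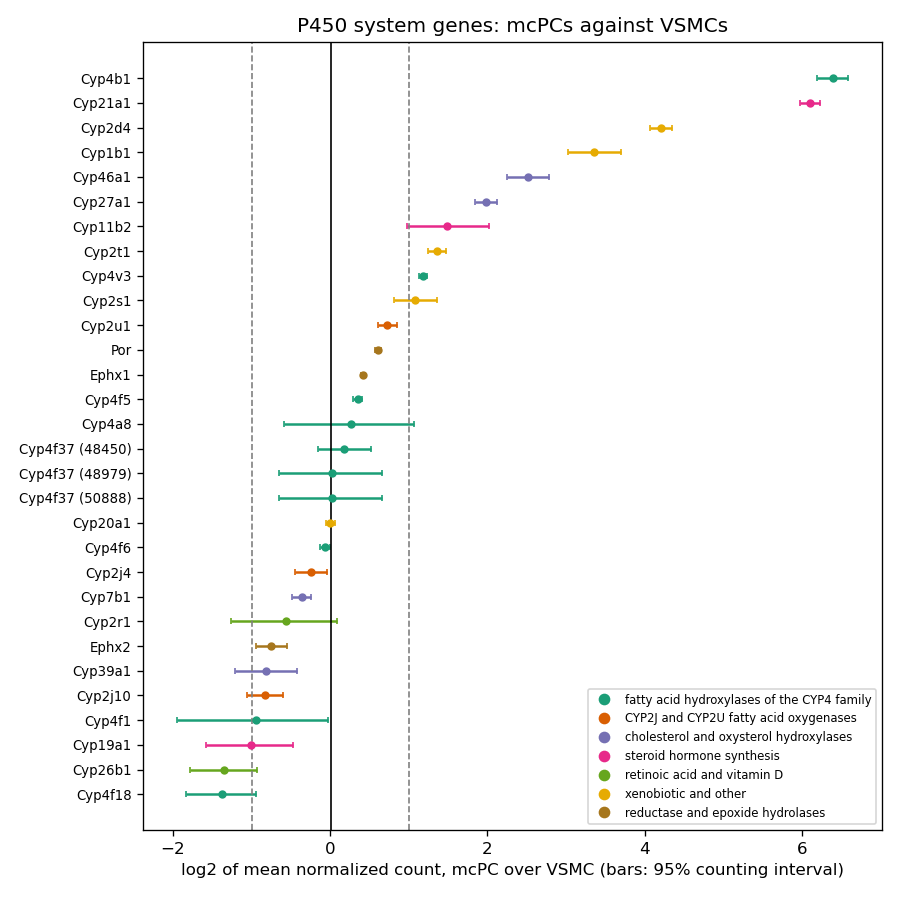
Log2 ratio of mean normalized counts, mcPC over VSMC (x axis), for each member, with bars for the 95% counting interval. Dashed lines mark 2-fold and the solid line the median of all genes. Cyp4b1, Cyp21a1 and Cyp2d4 lie farthest to the right (6.39, 6.10 and 4.21), whereas the 3 genes at least 2-fold higher in VSMCs have intervals that reach inside the dashed line.

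The CYP4 family, whose members hydroxylate fatty acids and eicosanoids, had 10 rows in the set. It held 52.9% of P450 abundance in VSMCs (80.9 TPM) and 39.7% in mcPCs (53.7 TPM). Of its rows 2 were at least 2-fold higher in mcPCs (22% of all genes were) and 1 was higher in VSMCs (13.9% of all genes). The other 7 were within 2-fold, and the median log2 ratio of the 10 rows was 0.10.

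Cyp4b1 (ENSRNOG00000055078), which hydroxylates short and medium-chain fatty acids and activates protoxicants in lung, had the largest ratio in the set. Its mean abundance was 1.01 TPM in VSMCs against 24.3 TPM in mcPCs, from 214 and 9534 reads over the samples of each cell type. Mean normalized counts were 51.5 and 4321, a log2 ratio of 6.39 (counting interval 6.19 to 6.59) or 83.9-fold. In mcPCs it exceeded 89.7% of the genes in abundance, and in VSMCs 18.2%. The ratio remained at 4.46 on TPM as deposited. Its analysed neighbours on the chromosome, Cyp4a8 and Efcab14, had log2 ratios of 0.26 and -0.32.

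Within the CYP4F group the pattern was different. Cyp4f5 and Cyp4f6 made up 94.6% of CYP4F abundance in VSMCs and 95.6% in mcPCs. Cyp4f5 (ENSRNOG00000042496) was at 29.6 TPM in VSMCs against 10.7 TPM in mcPCs, with mean normalized counts of 1673 and 2132 and a log2 ratio of 0.35 (counting interval 0.30 to 0.40). Cyp4f6 (ENSRNOG00000043233) was at 33.1 and 9.16 TPM, with normalized counts of 1446 and 1382 and a log2 ratio of -0.07 (counting interval -0.13 to -0.00). Both were within 2-fold on this scale. On TPM as deposited they stood at -1.46 and -1.84, near the median gene of that scale. The order of this pair turned between the cell types: the ratio of Cyp4f5 to Cyp4f6 abundance was 0.895 in VSMCs and 1.16 in mcPCs. Neither gene had whole numbers of reads, which happens when Salmon divides reads between similar transcripts, and the pair are close paralogs, so that order is uncertain. The CYP4F group as a whole went from 43.3% of P450 abundance in VSMCs to 15.3% in mcPCs. Much of that change follows from the high share of Cyp21a1, Cyp4b1 and Cyp2d4 in mcPCs. With those genes left out of the sum, CYP4F held 66.3 of 147 TPM in VSMCs and 20.7 of 54.2 TPM in mcPCs.

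Cyp4v3 (ENSRNOG00000042426), a fatty acid hydroxylase of the CYP4V group, was at 13.5 TPM in VSMCs against 8.63 TPM in mcPCs. Its normalized counts of 1356 and 3079 gave a log2 ratio of 1.18 (counting interval 1.13 to 1.23), with the opposite sign on TPM as deposited (-0.64). Its share of P450 abundance was 8.83% and 6.38%. Cyp4f18 (ENSRNOG00000015751), known from leukocytes, where it acts on leukotriene B4, was at 0.856 TPM in VSMCs against 0.0967 TPM in mcPCs. Its log2 ratio of -1.38 (counting interval -1.84 to -0.95), the lowest of the set, rests on 265 and 52 reads and was -0.56 on TPM relative to the median gene. The pseudocount of 0.1 in that TPM ratio exceeds its mcPC level and draws the ratio toward equality. A pair of Cyp4f37 rows (ENSRNOG00000048979 and ENSRNOG00000050888) carried identical values, 0.881 TPM in VSMCs against 0.271 TPM in mcPCs, and a log2 ratio of 0.02, and cannot be taken as separate measurements.

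The CYP2J and CYP2U genes, fatty acid oxygenases of which the CYP2J enzymes make EETs, were all within 2-fold. Together they came to 12.3 TPM in VSMCs against 3.72 TPM in mcPCs, or 8.05% and 2.75% of P450 abundance. Cyp2u1 (ENSRNOG00000011053), a brain and thymus hydroxylase of long-chain fatty acids, was at 4.77 and 2.26 TPM, with a log2 ratio of 0.73 (counting interval 0.60 to 0.85). Cyp2j4 (ENSRNOG00000031004) was at 3.12 and 0.769 TPM, with a log2 ratio of -0.24 (counting interval -0.45 to -0.04). Cyp2j10 (ENSRNOG00000042224) was at 4.43 and 0.694 TPM, with a log2 ratio of -0.83 (counting interval -1.06 to -0.60).

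The enzymes that serve or follow the P450s were also within 2-fold. Por (ENSRNOG00000001442), the electron donor, was at 41.7 TPM in VSMCs against 17.9 TPM in mcPCs. Its normalized counts were 2688 and 4091, a log2 ratio of 0.61 (counting interval 0.57 to 0.65). Summed P450 abundance was 3.67 times that of Por in VSMCs and 7.55 times in mcPCs. Without Cyp4b1, Cyp21a1 and Cyp2d4 the abundance of Por was 0.283 of the P450 sum in VSMCs and 0.331 in mcPCs. Ephx1 (ENSRNOG00000003515), the microsomal epoxide hydrolase, was the most abundant member in both cell types at 160.6 and 59.9 TPM, with a log2 ratio of 0.41 (counting interval 0.39 to 0.44). Ephx2 (ENSRNOG00000017286), the soluble hydrolase that is the main consumer of EETs, was at 3.76 and 0.638 TPM, with a log2 ratio of -0.75 (counting interval -0.95 to -0.55). Ephx1 stood 42.7 times above Ephx2 in VSMCs and 93.9 times in mcPCs.

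Steroid hormone synthesis had 3 genes in the set and went from 1.88% of P450 abundance in VSMCs to 32.9% in mcPCs, nearly all of it Cyp21a1. Cyp21a1 (ENSRNOG00000000428), the steroid 21-hydroxylase of glucocorticoid and mineralocorticoid synthesis in the adrenal cortex, was the most abundant P450 of mcPCs. Its mean abundance was 2.29 TPM in VSMCs against 44.3 TPM in mcPCs, from 481 and 17277 reads. Normalized counts were 116 and 7969, a log2 ratio of 6.10 (counting interval 5.97 to 6.24) or 68.7-fold, and 4.22 on TPM as deposited. It exceeded 94.6% of genes in mcPCs. Its estimated reads were whole numbers in both cell types, unlike those of a gene whose reads Salmon divides with others. Of its nearest analysed genes on the chromosome, C4a had a log2 ratio of 1.38 and Atf6b of 0.70.

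The other steroid P450 genes of the set were low. Cyp11b2 (ENSRNOG00000030111), aldosterone synthase, was at 0.183 TPM in VSMCs against 0.153 TPM in mcPCs. Its log2 ratio of 1.49 (counting interval 0.97 to 2.02) rests on 54.4 and 80.2 estimated reads, which were not whole and may be shared with paralogs, and was -0.16 on TPM as deposited. Cyp19a1 (ENSRNOG00000000196), aromatase, was at 0.394 and 0.0596 TPM, with a log2 ratio of -1.01 (counting interval -1.58 to -0.47). It turned to 0.09 on TPM relative to the median gene. The pseudocount of 0.1 in that TPM ratio exceeds the mcPC level of Cyp19a1, so the turn cannot be put down to the scale alone.

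The cholesterol and oxysterol hydroxylases held 7.38% of P450 abundance in VSMCs and 4.09% in mcPCs. Of these 4 members, 2 passed the 2-fold limit toward mcPCs, against 22% of all genes. Cyp46a1 (ENSRNOG00000007147), the cholesterol hydroxylase of neurons, was at 0.606 TPM in VSMCs against 0.997 TPM in mcPCs, with normalized counts of 37.2 and 213 and a log2 ratio of 2.51 (counting interval 2.25 to 2.79). Its effective length, weighted by the abundance of its transcripts, was 10.7% longer in mcPCs. Beside it, all 4 neuronal markers analysed were higher in mcPCs, from 0.823 to 19.9 TPM summed, and the part of neuronal RNA in this ratio was not tested. Cyp27a1 (ENSRNOG00000017188), the mitochondrial sterol hydroxylase of bile acid synthesis, was at 2.37 and 2.66 TPM, with normalized counts of 142 and 559 and a log2 ratio of 1.98 (counting interval 1.84 to 2.12). Cyp7b1 (ENSRNOG00000009730), which hydroxylates oxysterols and neurosteroids, was at 7.65 and 1.77 TPM, with a log2 ratio of -0.36 (counting interval -0.48 to -0.24). The genes of this group thus differed in sign, though on TPM as deposited Cyp27a1 was close to equal in level (0.16).

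For retinoic acid, Cyp26b1 (ENSRNOG00000015076), which degrades it, was at 0.516 TPM in VSMCs against 0.0619 TPM in mcPCs. Its log2 ratio was -1.35 (counting interval -1.78 to -0.94), from 270 and 58 reads, and -0.21 on TPM relative to the median gene. The pseudocount of 0.1 in that TPM ratio exceeds its mcPC level and draws the ratio toward equality.

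Of the 5 P450 genes of xenobiotic metabolism or unsettled function, 4 were at least 2-fold higher in mcPCs, against 22% of all genes. Cyp2d4 (ENSRNOG00000032261), a CYP2D enzyme of rat brain with many drug substrates, was at 2.37 TPM in VSMCs against 12.4 TPM in mcPCs. Its normalized counts were 106 and 1963, a log2 ratio of 4.21 (counting interval 4.06 to 4.35) or 18.5-fold, and 2.34 on TPM as deposited. Its reads were not whole, and of the 5 Cyp2d genes in RefSeq it was the sole one analysed, so reads of its paralogs may be counted with it or apart. Its nearest analysed genes on the chromosome, Ndufa6 and Tcf20, had log2 ratios of -0.64 and 0.43, and genes not analysed were passed over. Cyp1b1 (ENSRNOG00000040287), an enzyme of the aryl hydrocarbon response, was at 0.271 and 0.623 TPM. Its normalized counts were 19.7 and 202, a log2 ratio of 3.36 (counting interval 3.02 to 3.70), which was 2.52 for counts scaled to the same total. On TPM as deposited, with the pseudocount of 0.1, it was 0.97. The TPM means without the pseudocount are more than 2-fold apart.

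The other genes of this group had smaller ratios. Cyp2t1 (ENSRNOG00000028891) was at 5.66 and 4.06 TPM, with a log2 ratio of 1.36 (counting interval 1.25 to 1.48). Cyp2s1 (ENSRNOG00000020743) was at 0.753 and 0.450 TPM, with a log2 ratio of 1.08 (counting interval 0.81 to 1.36). Both turned in sign on TPM as deposited, to -0.47 and -0.63. Cyp20a1 (ENSRNOG00000017631) was the most abundant P450 of VSMCs at 35.5 TPM and was at 10.04 TPM in mcPCs. Its normalized counts were 1826 and 1831, a log2 ratio of 0.00 (counting interval -0.05 to 0.06), next to the median of all genes.

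The remaining 5 rows, Cyp4a8, Cyp4f1, Cyp2r1, Cyp39a1 and the row ENSRNOG00000048450 of Cyp4f37, were under 0.8 TPM in both cell types and within 2-fold. Their log2 ratios ranged from -0.94 to 0.26. They include Cyp4a8, the sole Cyp4a gene analysed of 5 in RefSeq, with 0.135 TPM in VSMCs against 0.0436 TPM in mcPCs from 37.1 and 21 reads, a value singled out here because CYP4A enzymes make 20-HETE. Across the set, 19 members reached 0.8 TPM in VSMCs and 14 in mcPCs. Of 89 protein-coding P450 genes of RefSeq, 25 were analysed here. Among them were 8 of 17 Cyp4 and 7 of 41 Cyp2 genes, and none of the 11 Cyp2c, 8 Cyp2b, 8 Cyp3a and 2 Cyp1a genes.

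**Figure D4:**
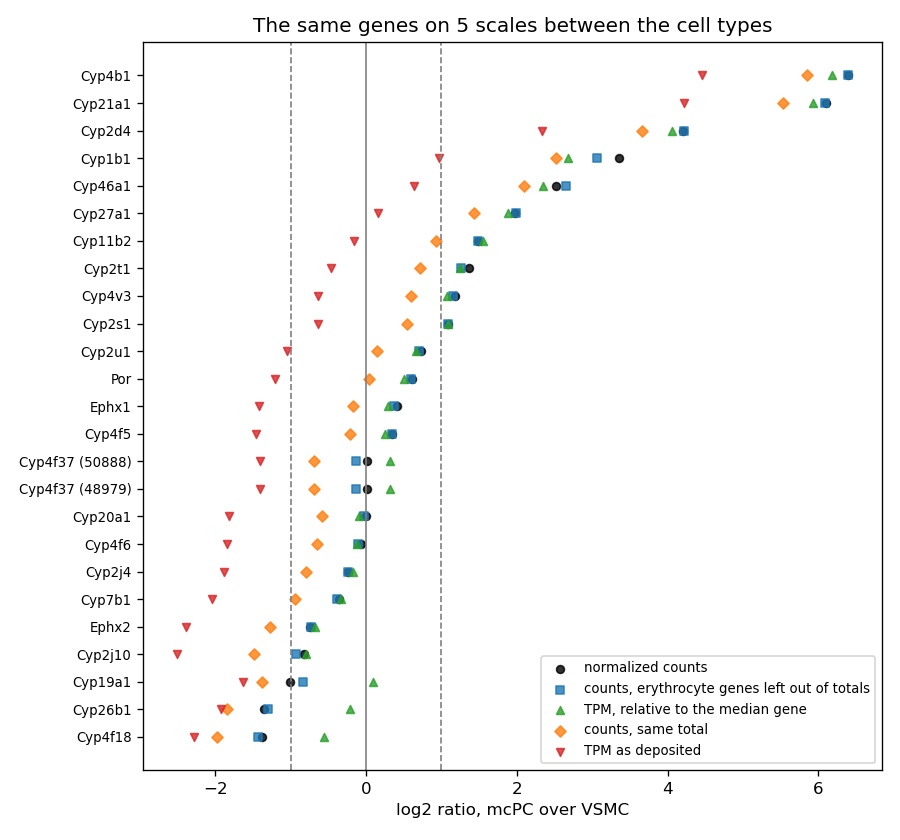
Log2 ratio, mcPC over VSMC (x axis), of the 25 members named by rule, on 5 scales between the cell types. Dashed lines mark 2-fold. Cyp4b1, Cyp21a1 and Cyp2d4 stay at least 2-fold higher in mcPCs on each scale, whereas Cyp11b2, Cyp2t1, Cyp4v3 and Cyp2s1 turn negative on TPM as deposited and Cyp19a1 turns positive on TPM relative to the median gene.

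Lists of genes that work with the P450s were read beside them, with log2 ratios of normalized counts in parentheses. By the same limit 22% of all genes were higher in mcPCs and 13.9% in VSMCs. The counts of every list below, markers included, are to be read against these shares, and no list was tested against them. Where levels in TPM and the ratio point opposite ways, as for Pgrmc1 and Srd5a3 below, the direction depends on the scale. Of 19 genes for electron donors and heme supply, 7 were at least 2-fold higher in mcPCs and 1 in VSMCs, with a median log2 ratio of 0.68. The one higher in VSMCs was Cyb5r3, cytochrome b5 reductase (194.8 against 14.2 TPM, log2 ratio -1.95). Its partner Cyb5a was at 114 and 43.3 TPM (0.42). Pgrmc1, a heme-binding partner of P450s, was at 101 and 59.4 TPM (1.05). Fech, which inserts iron into heme, was at 13.4 and 53.9 TPM (3.87). Heme synthesis is also a program of red cells, and all 8 erythrocyte markers analysed were higher in mcPCs, from 7148 to 541834 TPM summed, so the part of erythrocyte RNA in Fech was not tested.

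In the arachidonate list, which covers release of the fatty acid and the other oxygenases that use it, 13 of 21 listed genes were analysed. Of these, 5 were higher in mcPCs and 3 in VSMCs, with a median of 0.45. Alox15, a lipoxygenase also abundant in maturing red cells, was at 11.9 TPM in VSMCs against 975 TPM in mcPCs (8.23). Ephx3, an epoxide hydrolase outside the set, was at 64.0 and 7.90 TPM (-1.19). Ptges3 (-0.35) and Lta4h (0.47) were within 2-fold. Ptgs1, cyclooxygenase, was at 0.0342 and 0.543 TPM (5.76) from 11 and 308 reads.

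Among 9 genes on which 20-HETE and EETs are known to act, 4 were higher in VSMCs and 1 in mcPCs, with a median of -0.76. Kcnmb1 and Kcnma1, the subunits of the large-conductance potassium channel, were at 414 and 19.1 TPM in VSMCs and at 1.14 and 0.0599 TPM in mcPCs (-6.73 and -6.43). Cacna1c, the calcium channel of smooth muscle, was at 63.3 and 8.65 TPM (-1.05). Ppard, a nuclear receptor for fatty acids, was at 52.4 and 8.85 TPM (-0.76).

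In the retinoid list 9 of 19 rows were higher in mcPCs and 2 in VSMCs (median 0.87), the latter being Dhrs3, a retinal reductase (71.4 against 2.45 TPM, -3.08), and the receptor Rxra (40.7 against 4.43 TPM, -1.41). The largest ratios toward mcPCs were those of the receptor Rxrg (0.0689 against 0.577 TPM, 4.81) and Aldh1a1, a retinal dehydrogenase (0.193 against 0.843 TPM, 3.89). These rest on 16 and 217 reads for Rxrg and on 48 and 383 reads for Aldh1a1. In the oxysterol list 7 of 14 were higher in mcPCs and 2 in VSMCs (median 0.95). Ch25h, the cholesterol hydroxylase that supplies a substrate of Cyp7b1, was at 97.3 TPM in VSMCs against 3.36 TPM in mcPCs (-3.15), and Insig1, a sterol sensor, at 84.7 and 7.47 TPM (-1.72). The largest ratio of this list was that of the oxysterol receptor Gpr183, at 0.350 and 15.9 TPM (7.25), and Nr1h3, the liver X receptor, had 2.65. Of 17 rows for vitamin D and steroids, 6 were higher in mcPCs and 3 in VSMCs (median 0.35). Hsd11b1, which regenerates active glucocorticoid, was at 6.15 and 62.1 TPM (5.20), and Srd5a3 at 37.2 and 31.4 TPM (1.59). The glucocorticoid receptor gene Nr3c1 had -0.36 for its most abundant row by TPM, from 4543 and 1863 reads. Its other row had the opposite sign, 0.13, from 16912 and 9687 reads, so no direction is taken for this gene. Of 9 xenobiotic receptor genes analysed, 2 were higher in mcPCs and 1 in VSMCs (median -0.09). The latter was Tiparp, a target of the aryl hydrocarbon receptor (93.9 against 5.31 TPM, -2.38), opposite in sign to Cyp1b1, another target. Arnt, the partner of that receptor, had -0.55.

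Markers of the labelled cells went with their labels. This is no independent check, because the lists were chosen with earlier results of these data known. All 7 smooth muscle genes were higher in VSMCs (45144 TPM summed against 82.2 TPM), and all 6 pericyte genes were higher in mcPCs (613 against 2854 TPM). In the mural list Mcam (-1.11) and Notch3 (-1.31) were higher in VSMCs and Pdgfrb (1.17) in mcPCs, with a median of -0.19. Markers of other cells were also higher in the negatively sorted mcPCs, and no listed marker with a row stood at 0 in either cell type. At least 2-fold higher were 6 of 9 endothelial genes (535 TPM summed in VSMCs and 218 TPM in mcPCs, with Esam at 487 and 184 TPM), 4 of 4 astrocyte genes (0.582 and 15.7 TPM), 3 of 3 microglial genes (0.498 and 7.86 TPM), 3 of 4 oligodendrocyte genes (6.62 and 5.20 TPM) and 4 of 5 fibroblast genes (141 and 186 TPM). The single ependymal gene was at 0.181 and 0.258 TPM (2.22). In mcPCs the highest of the genes at least 2-fold higher were Cldn5 (15.4 TPM) for endothelium, Slc1a3 (12.7 TPM) for astrocytes, Csf1r (3.94 TPM) for microglia, Tubb3 (15.7 TPM) for neurons and Slc6a13 (132 TPM) for fibroblasts. Their log2 ratios were 6.34 (Cldn5), 7.15 (Slc1a3), 6.99 (Csf1r), 8.76 (Tubb3) and 7.26 (Slc6a13). In the same cells Cyp21a1 was at 44.3 TPM, Cyp4b1 at 24.3 TPM and Cyp2d4 at 12.4 TPM. The level of a marker sets no bound on that of other genes of its cell type. The part of RNA from these cells or from erythrocytes in the ratios of Cyp4b1, Cyp21a1, Cyp2d4 and the other members higher in mcPCs was not tested. The same holds for the partner genes higher in mcPCs.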

How the data were processed

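Messenger RNA of sorted VSMCs and mcPCs was measured by stranded, poly(A)-selected sequencing, each library in 4 runs. The authors trimmed reads with Eoulsan, quantified them with Salmon 0.8.0 against Ensembl cDNA (Rnor_6.0), joined transcripts into genes with tximport, and normalized with DESeq2. A gene needed 1 read or more in every sample to be listed. The deposited table gives the authors' mean per cell type of TPM, of estimated counts and of effective length, and a normalized signal, the estimated counts divided by DESeq2's normalization factors. It also holds the authors' comparison (fold changes, their errors and p-values), which was not used here.

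Mean estimated counts times 12 runs were taken as the reads of a cell type. The factor was inferred from the values, most of which become whole numbers when multiplied by it, and all read numbers and intervals rest on it. A product within 0.02 of a whole number was taken as whole, which held in both cell types for 69.0% of genes. Log2 ratios of mean normalized counts had no pseudocount. TPM ratios used 0.1 (alternative 1). The intervals are exact binomial, cover counting error only, and take no account of the spread between isolations. The edgeR test planned for values per sample was not run, because means alone were used. Named members have at least 0.8 TPM in either cell type, or are at least 2-fold apart with at least 20 reads in the higher one, and Cyp4a8 was named outside that rule. Named partners have at least 20 TPM or a 4-fold ratio, at most 5 per list. Gpr183, Nr1h3, Rxrg, Aldh1a1 and the other row of Nr3c1 were added after their values were seen. The members and lists were chosen with earlier results of these data known. Promoters and the family counts are from RefSeq (GRCr8), another build than that of the table, so no coordinates were joined. The ratio step was tested on simulated reads with counting error only. That test covers neither the spread between isolations nor the authors' normalization. Scripts ran in Python 3.11.15 with scipy 1.17.1, pandas 2.3.3, numpy 2.4.6 and matplotlib 3.10.9.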

Additional observations from a re-analysis of the deposited data

How the results depend on the processing

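The number of members at least 2-fold higher in mcPCs was 10 on normalized counts and 6 with counts scaled to the same total. It was 3 on TPM as deposited (pseudocount 0.1), 3 with a pseudocount of 1, 6 among genes of at least 0.8 TPM in VSMCs, and 5 at a limit of 4-fold. The number higher in VSMCs was 3 on normalized counts. It was 8 with counts scaled to the same total, 19 on TPM as deposited, 9 with a pseudocount of 1, 0 on TPM relative to the median gene, 1 with at least 0.8 TPM in VSMCs or in either cell type, 7 at 1.5-fold, 0 at 4-fold and 0 when the whole counting interval had to pass 2-fold. The pseudocount of 0.1 in the TPM ratios exceeds the mcPC level of Cyp19a1, Cyp26b1 and Cyp4f18, the 3 higher in VSMCs on normalized counts. Their values on TPM relative to the median gene therefore depend on the pseudocount as well as the scale. The median of the members was 0.22, and -0.41, -1.37, -0.54 and 0.34 on counts of the same total, TPM, TPM with a pseudocount of 1 and TPM relative to the median gene, and 0.35 and 0.38 with 0.8 TPM in VSMCs or in either. Over all genes, 2034 were higher in VSMCs on normalized counts, 4213 with the same total, 10564 on TPM and 9236 with a pseudocount of 1. That number was 1942 on TPM relative to the median gene and 1929 with at least 0.8 TPM in VSMCs or in either cell type. It was 3422 at 1.5-fold, 836 at 4-fold and 1739 when the whole counting interval had to pass 2-fold. In mcPCs 3210 of all genes were higher, against 2260 with the same total, 1023 on TPM and 592 with a pseudocount of 1. It was 1601 with at least 0.8 TPM in VSMCs and 1815 at 4-fold. These scales moved the median of all genes by -1.73 (TPM), -1.45 (TPM with a pseudocount of 1) and -0.57 (same total). The causes of these moves were not tested, and erythrocyte genes were left out of the scaling of counts only, not of TPM. The sign turned on TPM as deposited, and with a pseudocount of 1, for Cyp11b2 (-0.16 and -0.037), Cyp2t1 (-0.47 and -0.40), Cyp4v3 (-0.64 and -0.59) and Cyp2s1 (-0.63 and -0.27), and for Cyp19a1 on TPM relative to the median gene (0.088). Of the 13 named members at least 2-fold apart, 9 kept their direction on TPM, 12 on TPM relative to the median gene and 13 on both count scalings and both pseudocounts on normalized counts. Counting the identical Cyp4f37 rows once, an alternative chosen after seeing the data, left 10 and 3.

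No paired analysis was possible because the values used here are means per cell type. For the same reason no sample was left out in turn, and neither edgeR nor DESeq2 was run. Members below 0.8 TPM rest on as few as 13.0 reads per cell type.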
